A study of Saccharomyces cerevisiae with 4 samples.

Results

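The flocculins are the adhesins of the yeast cell surface, and the 9 features described here are the 5 flocculin genes FLO1, FLO5, FLO9, FLO10 and FLO11, their regulators FLO8 and SFL1, and the long noncoding RNAs ICR1 and PWR1 that are annotated upstream of FLO11. They were chosen by name from the 7126 features of 1 deposited table, and all 9 have a row in it. The table comes from 4 RNA-seq libraries of Saccharomyces cerevisiae strain CRY, a haploid of mating type a whose labels give defects in ade2, his3, leu2, trp1 and ura3; both groups share this genotype. The 2 manganese-adapted samples had grown for 120 h in rich medium (YPD) with 2.5 mM manganese sulfate, and the 2 control samples for 18 h in the same medium, where manganese was estimated at 0.0036 mM; both groups were taken at the stationary stage. Culture time and manganese differ together in all samples and cannot be told apart. Nothing in the labels says that the samples of a group came from separate cultures, so the spread behind each p-value is that between these 4 libraries and may be technical.

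Flocculins are large mannoproteins linked to the cell wall through a GPI anchor. Flo1, Flo5, Flo9 and Flo10 bind mannose chains on neighbouring cells and make cells clump, whereas Flo11 serves invasive growth, pseudohyphal growth and biofilms. FLO11 has one of the longest promoters of the yeast genome, on which the protein kinase A pathway, the filamentation MAP kinase pathway and glucose signals meet. The activator Flo8 and the repressor Sfl1 compete there under protein kinase A. They also act through a pair of noncoding RNAs: transcription of ICR1 runs through the FLO11 promoter on the FLO11 strand and hinders FLO11, and transcription of PWR1 on the other strand hinders ICR1. In the reference strain S288C most of these genes are silent or low, in part because its FLO8 carries a stop codon.

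Values are given as CPM, read counts scaled to library depth, with the authors' scaling factor for each library. The manganese-adapted libraries held 13739798 and 12307870 reads and the control libraries 14184276 and 13466475 reads. A count of 3 reads equals 0.221 and 0.237 CPM in the manganese-adapted and 0.212 and 0.225 CPM in the control libraries. All 7 a-cell markers had reads in every library, with summed levels of 321 and 325 CPM in manganese-adapted and 305 and 335 CPM in control libraries. The sum hides opposite changes: 2 of the 7 were higher and 3 lower (limma adjusted p under 0.05), against 33.6% and 34.9% of all features tested. Of 6 alpha-cell markers, MATALPHA1 and HMLALPHA1 had no reads in any library, and of the 4 tested 3 were higher and 1 lower. The alpha-cell list summed to 138 and 149 CPM in manganese-adapted and 69.5 and 66.7 CPM in control libraries. The part of this difference in the results below was not tested. All 5 genes named as defective had reads in every library; the labels do not say which part of each is missing, so this checks nothing.

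The sequences show which members can be told apart by their reads. The first 90 coding bases of the flocculins related to FLO1 are printed 5′ to 3′ from the R64 genome (the assembly that the submitters call sacCer3), with capitals where a base differs from FLO1. They lie at chrI:203403-203492 (plus strand) for FLO1, chrI:27879-27968 (minus strand) for FLO9, chrVIII:525392-525481 (plus strand) for FLO5 and chrXI:646356-646445 (plus strand) for FLO10.
FLO1: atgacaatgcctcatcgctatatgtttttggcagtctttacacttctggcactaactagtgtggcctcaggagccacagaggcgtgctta
FLO9: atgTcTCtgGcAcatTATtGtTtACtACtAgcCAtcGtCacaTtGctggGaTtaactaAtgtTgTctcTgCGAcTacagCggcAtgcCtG
FLO5: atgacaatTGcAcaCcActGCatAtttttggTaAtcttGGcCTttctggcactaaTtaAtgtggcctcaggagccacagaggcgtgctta
FLO10: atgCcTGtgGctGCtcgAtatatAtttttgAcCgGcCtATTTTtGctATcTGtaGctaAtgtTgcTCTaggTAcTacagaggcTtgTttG
In these 90 bases FLO9 differs from FLO1 at 35 positions, FLO5 at 16 and FLO10 at 34. Further into the genes the copies become identical over long stretches. The first 60-base stretch of FLO1 that also occurs in FLO5 and FLO9 starts at coding base 354 of FLO1, at chrI:203756-203815, and is found once in each of these 3 genes and in neither FLO10 nor FLO11.
Shared stretch: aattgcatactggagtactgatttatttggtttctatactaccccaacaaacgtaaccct
Over the first 600 coding bases FLO1 was 91.5% identical to FLO5 and 86.2% to FLO9, against 55.4% to FLO10 and 43.4% to FLO11.

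Cut into all overlapping stretches of 50 bases, FLO9 was the flocculin with the smallest share of sequence found once in the genome, 36.6%, followed by FLO1 with 46.2% and FLO5 with 61.4%. FLO1 shared 40.9% of its stretches with FLO9, and FLO9 shared 47.4% of its stretches with FLO1. FLO10 and FLO11 held 12.8% and 28.0% of stretches that are repeated, but within the gene alone, and none that occurs outside it. FLO8, SFL1, ICR1 and PWR1 held only stretches found once. Reads of FLO10 and FLO11 can therefore be told from those of other genes at this length, while how reads were divided among FLO1, FLO5 and FLO9 is uncertain. The sources used here do not state the read length; with stretches of 100 bases the share found once was 53.8% for FLO9, 62.9% for FLO1 and 87.5% for FLO5. The number of repeats in strain CRY can also differ from that in R64.

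**Figure D1:**
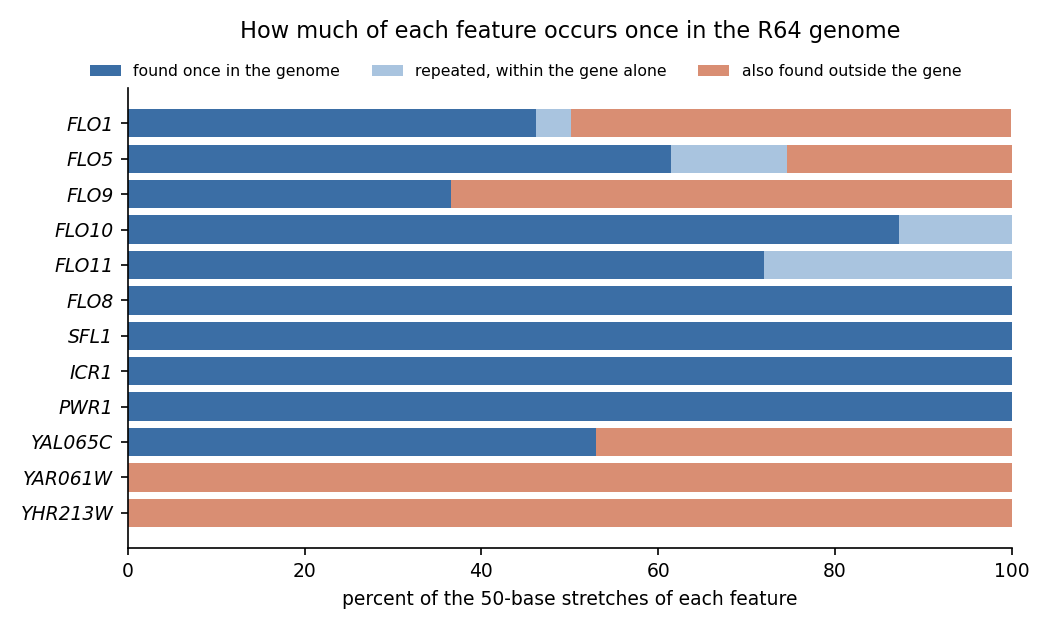
Percent of all 50-base stretches of each feature (horizontal axis) that occur once in the R64 genome, are repeated within the feature alone, or also occur elsewhere. FLO1, FLO5 and FLO9 share sequence with other sites, FLO10 and FLO11 repeat only within themselves, and the fragments YAR061W and YHR213W hold no stretch of their own.

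All 8 members with reads were higher in the manganese-adapted libraries, and for each of them both manganese-adapted samples lay above both controls. Each of the 8 was above 1 CPM in all 4 samples, so the filter on low values (at least 1 CPM in 2 or more samples) took out only PWR1. Of all 6296 features tested, limma called 33.6% higher and 68.5% changed in either direction (adjusted p under 0.05), and 42.4% had both manganese-adapted samples above both controls. The median difference between manganese-adapted and control means of log2(CPM + 1), called log2 fold change here, was 1.09 over the 8 members and -0.01 over all features tested. For 6 of the 8 the rise was at least 2-fold on that scale, against 8.28% of all features tested. This count depended on gene length. With the trend of fold changes along coding length removed, FLO11 (2.08) and FLO10 (1.99) stayed at least 2-fold higher. ICR1 (0.98), FLO8 (0.79), FLO9 (0.76) and FLO5 (0.69) then fell short of 2-fold. The members were chosen with results of these data known, so these counts are a description.

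FLO11, the flocculin of invasive growth and biofilms, had the largest change of the members. It was at 55.9 and 55.7 CPM in the manganese-adapted libraries, against 8.85 and 9.69 CPM in the control libraries. The recovered reads were 758 and 705 in manganese-adapted and 125 and 129 in control libraries, so the group difference was many times the spread within either group. Its log2 fold change was 2.47 ± 0.11 (SE, n = 2 each, limma adjusted p 4.41e-08), and its mean CPM was 6.02-fold higher. By log2 fold change FLO11 had rank 37 and FLO10 rank 49 among the 6296 features; 0.778% of them had a change at least as large as that of FLO10. FLO10, a mannose-binding flocculin near the right end of chromosome XI, had the most reads of the flocculins in the manganese-adapted libraries. It stood at 267 and 258 CPM in manganese-adapted libraries, against 54.9 and 47.5 CPM in control libraries, a log2 fold change of 2.34 ± 0.09 (SE, limma adjusted p 2.04e-08). The mean was 5.13-fold higher, and the samples of a group lay close together in both genes.

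FLO9, FLO5 and FLO1, the 3 close copies, rose by about as much as each other and by less than FLO10 and FLO11. FLO9 was at 173 and 168 CPM in manganese-adapted libraries, against 83.9 and 70.99 CPM in control libraries (log2 fold change 1.13 ± 0.10, SE, limma adjusted p 3.05e-06). FLO5 was at 102 and 99.4 CPM in manganese-adapted and 50.5 and 47.8 CPM in control libraries (1.02 ± 0.09, adjusted p 3.17e-06, limma). FLO1, the gene for the best known of the flocculins, was at 55.5 and 48.6 CPM in manganese-adapted and 33.8 and 22.4 CPM in control libraries (0.89 ± 0.16, adjusted p 0.00064, limma). In FLO1 the controls lay far apart, with control 1 nearer to the manganese-adapted samples. Summed, which does not depend on how shared reads were divided among them, the 3 copies stood at 331 and 316 CPM in manganese-adapted and 168 and 141 CPM in control libraries. Any shared reads that were not counted would be missing from the sum too. The sum gave a log2 fold change of 1.06 ± 0.10 (SE, n = 2 each, limma adjusted p 5.49e-06). All 8 members tested had a smaller log2 fold change with the trend of fold changes along coding length removed. FLO1 was then at 0.49 (limma adjusted p 0.013), FLO5 at 0.69, FLO9 at 0.76 and the sum of the copies at 0.69.

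**Figure D2:**
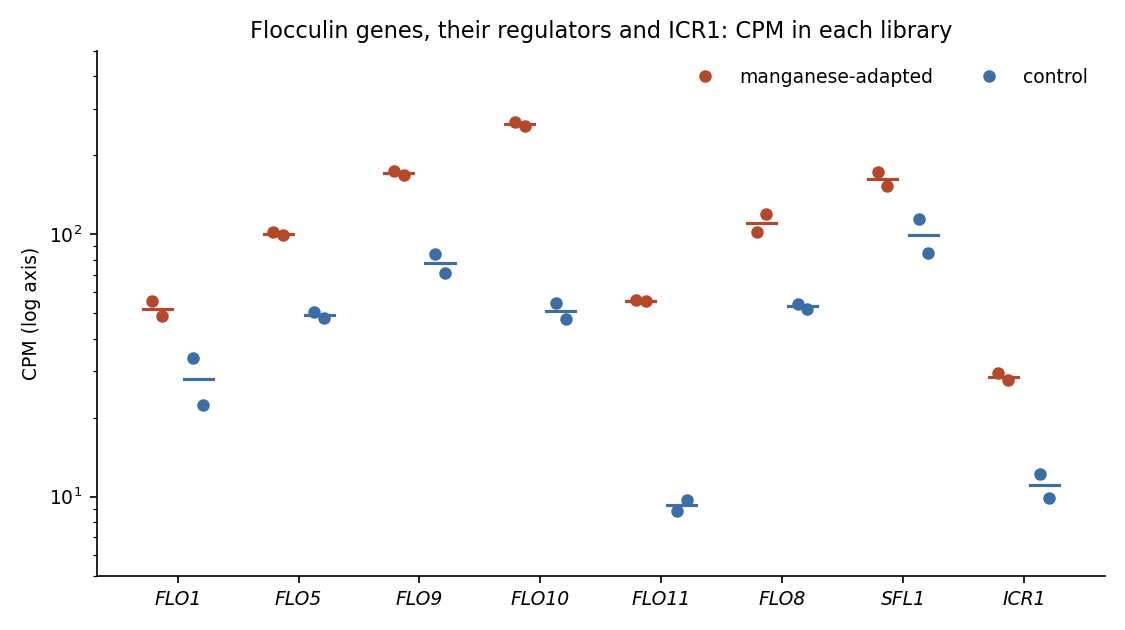
CPM of each member with reads (log axis), 2 manganese-adapted libraries left of 2 control libraries; points are libraries and lines are group means. FLO11 is at 55.9 and 55.7 CPM in manganese-adapted against 8.85 and 9.69 CPM in control libraries, and in no gene do the groups overlap.

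The split of assigned flocculin reads among the 5 genes differed between the groups. Shares of these reads are not corrected for gene length or for the part of each gene found once in the genome. The 5 genes together were at 653 and 630 CPM in manganese-adapted libraries, against 232 and 198 CPM in control libraries, 2.98-fold higher in the mean. FLO10 took 40.8% (Wilson 95% interval 39.8 to 41.9) and 41.0% (39.9 to 42.1) of flocculin reads in the manganese-adapted libraries, against 23.7% (22.2 to 25.1) and 23.9% (22.4 to 25.6) in the control libraries. FLO11 took 8.56% (7.99 to 9.16) and 8.84% (8.23 to 9.48) in manganese-adapted libraries, against 3.82% (3.21 to 4.53) and 4.89% (4.13 to 5.78) in control libraries. FLO9, the leading flocculin of the controls at 36.2% and 35.8% there, held 26.5% and 26.6% in the manganese-adapted libraries. The intervals cover counting error only; reads without molecular identifiers are not independent molecules. Between single members, the log2 difference of FLO10 over FLO9 was 0.62 and 0.62 in manganese-adapted and -0.60 and -0.57 in control libraries. The 2 groups do not overlap in this difference, but 2 samples against 2 cannot give a two-sided exact permutation p under 0.333, which is what was found (0.556 after Benjamini-Hochberg adjustment over 5 pairs of members compared). For FLO11 over FLO10 the difference was -2.23 and -2.19 in manganese-adapted and -2.50 and -2.18 in control libraries, which overlap (exact permutation p 1.0).

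Levels of different genes are compared per kb of their annotated R64 length. In manganese-adapted libraries the order of the mean level in CPM per kb was FLO10 (74.8 ± 1.7, SD, n = 2), SFL1 (70.6 ± 6.0), FLO8 (46.2 ± 5.2), FLO9 (43.0 ± 1.0), FLO5 (31.1 ± 0.51), FLO11 (13.6 ± 0.04), FLO1 (11.3 ± 1.1) and ICR1 (9.0 ± 0.36). FLO10 and SFL1 did not differ beyond their spread, nor did FLO8 and FLO9. In control libraries it was SFL1 (43.3 ± 9.2), FLO8 (22.1 ± 0.68), FLO9 (19.5 ± 2.3), FLO5 (15.2 ± 0.59), FLO10 (14.6 ± 1.5), FLO1 (6.1 ± 1.8), ICR1 (3.5 ± 0.53) and FLO11 (2.3 ± 0.15), with FLO5 and FLO10 overlapping. Per kb of annotated length FLO11 was below ICR1 in both controls and above it in both manganese-adapted libraries. This order depends on the length used: per kb of the bases that ICR1 shares with no other feature, ICR1 was at 15.1 and 14.3 CPM per kb in manganese-adapted libraries, above FLO11 at its annotated length (13.6 and 13.6) and below FLO11 per kb of stretches found once (19.2 and 19.1). Counted per kb of stretches found once, FLO9 was the highest member in the manganese-adapted libraries, at 121 and 117 CPM per kb, against 88.4 and 85.6 for FLO10, so the place of FLO9 depends on how shared reads were treated.

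FLO8 encodes an activator of flocculin genes. The R64 annotation lists it as a pseudogene because its reading frame holds a stop at codon 142, shown here in capitals at chrV:377174-377206 (minus strand) as it stands in the reference.
FLO8: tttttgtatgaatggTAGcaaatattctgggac
The labels do not give the FLO8 allele of strain CRY, and read counts do not show it. FLO8 was at 102 and 120 CPM in manganese-adapted libraries, against 54.3 and 52.0 CPM in control libraries, with no overlap (log2 fold change 1.04 ± 0.10, SE, n = 2 each, limma adjusted p 6.47e-06). SFL1, the repressor that opposes Flo8 at FLO11, also rose. It was at 172 and 153 CPM in manganese-adapted and 114 and 84.7 CPM in control libraries (0.71 ± 0.13, limma adjusted p 0.00059), and here too control 1 was the nearer of the controls. With the coding length trend removed SFL1 was at 0.47 (limma adjusted p 0.0045). The log2 difference of FLO8 over SFL1 was -0.75 and -0.35 in manganese-adapted and -1.06 and -0.69 in control libraries; these overlap (exact permutation p 0.667, 0.833 after adjustment over the 5 pairs).

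**Figure D3:**
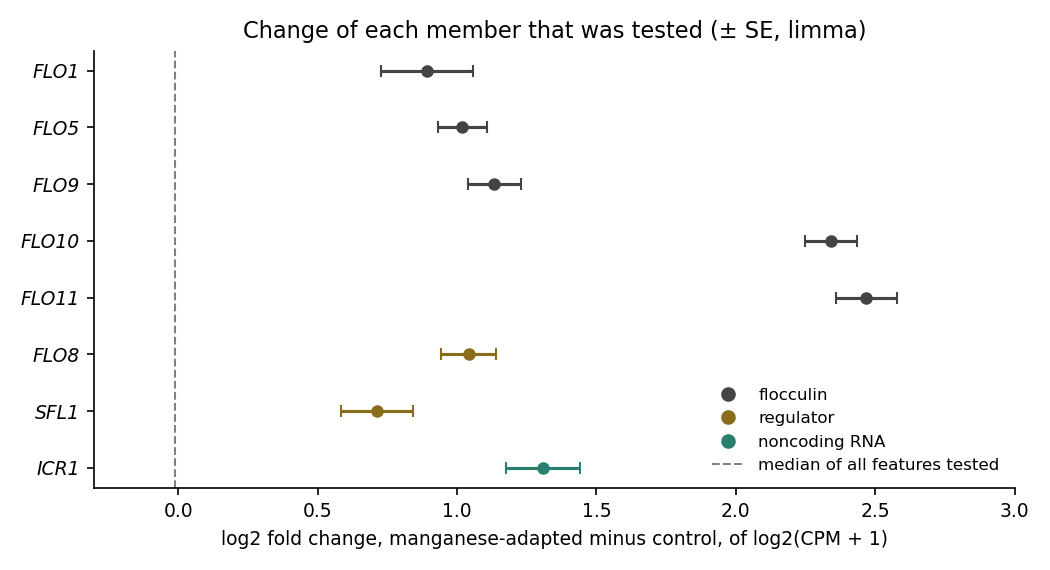
Log2 fold change, manganese-adapted minus control, of log2(CPM + 1) for the 8 members tested, with SE bars from limma (2 samples per group) and the median of all features as a dashed line. FLO11 (2.47) and FLO10 (2.34) stand apart from the other 6, which lie between 0.71 and 1.31.

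ICR1, the noncoding RNA that runs toward FLO11, was higher after adaptation together with FLO11. It was at 29.5 and 27.9 CPM in manganese-adapted libraries, against 12.2 and 9.84 CPM in control libraries, from 400 and 353 reads against 173 and 131. Its log2 fold change was 1.31 ± 0.13 (SE, n = 2 each, limma adjusted p 9.34e-06), and the groups did not overlap. The log2 level of FLO11 over ICR1 was 0.90 and 0.97 in manganese-adapted libraries, against -0.43 and -0.02 in control libraries. That is a difference of 1.16, with an exact permutation p of 0.333, the smallest that 2 against 2 allows (0.556 after adjustment over the 5 pairs). Fewer cells with a given RNA and less of that RNA per cell cannot be told apart in such bulk samples, so these data do not show whether FLO11 and ICR1 rose in the same cells.

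In R64, ICR1 lies on chromosome IX at 393884 to 397082 on the minus strand and FLO11 at 389572 to 393675 on the same strand, with 208 bases between the annotated end of ICR1 and the FLO11 start codon. The window of 250 bases before to 50 bases after the start codon, at chrIX:393626-393925 (minus strand), is shown because both transcripts meet there; its 42 bases in capitals are annotated as ICR1.
FLO11 promoter: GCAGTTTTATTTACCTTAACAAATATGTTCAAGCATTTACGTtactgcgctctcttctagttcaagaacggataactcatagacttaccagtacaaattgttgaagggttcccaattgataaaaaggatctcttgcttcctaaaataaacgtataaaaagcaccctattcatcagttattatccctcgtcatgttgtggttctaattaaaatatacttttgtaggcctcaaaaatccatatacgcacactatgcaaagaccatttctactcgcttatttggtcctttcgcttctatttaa
A search on both strands of this window found the TATA box letters TATAAA once, starting 99 bases before the start codon. FLO1, FLO5 and FLO10 also held 1 match each, at 97, 86 and 91 bases before their start codons, and FLO9 and SFL1 held none. FLO8 held 3 matches, at 64 and 41 bases before its start codon and inside its coding region. These letters occur in 45.4% of the 6021 windows of the same length in the genome. The Ste12 letters TGAAACA (7.5% of windows) and the letters CATTCC (10.9% of windows), 1 form of the Tec1 site, were not in the FLO11 window; this says only that they are not in these 300 bases.

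PWR1, the noncoding RNA that is known to oppose ICR1, was listed at 0 in all 4 libraries. PWR1 (chromosome IX, 395999 to 396939, plus strand) lies wholly inside ICR1 on the other strand. The small open reading frame YIR020C, wholly inside ICR1 on the ICR1 strand, was at 0 in every library too. The only other feature wholly inside another on the same strand and found once in the genome, OSW5, had 2602 reads over the 4 libraries. Among features of the table whose 50-base stretches all occur once in the genome, 8 lie wholly inside another feature of the table on the opposite strand, PWR1 included, and all 8 had no read in any library. Features without any overlap were at 0 in 29 of 5425 cases, 0.5%, and features that overlap another in part in 1 of 116, 0.9%. So a 0 here shows that no reads were assigned to PWR1, and whether PWR1 was transcribed cannot be read from this table. The sources used here state neither the strand setting nor the counting mode. ICR1 has 1955 of its 3199 bases to itself, and per kb of those it was at 15.1 and 14.3 CPM per kb in manganese-adapted and 6.26 and 5.03 CPM per kb in control libraries. The reads of ICR1 can come from either strand if strand was not kept.

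**Figure D4:**
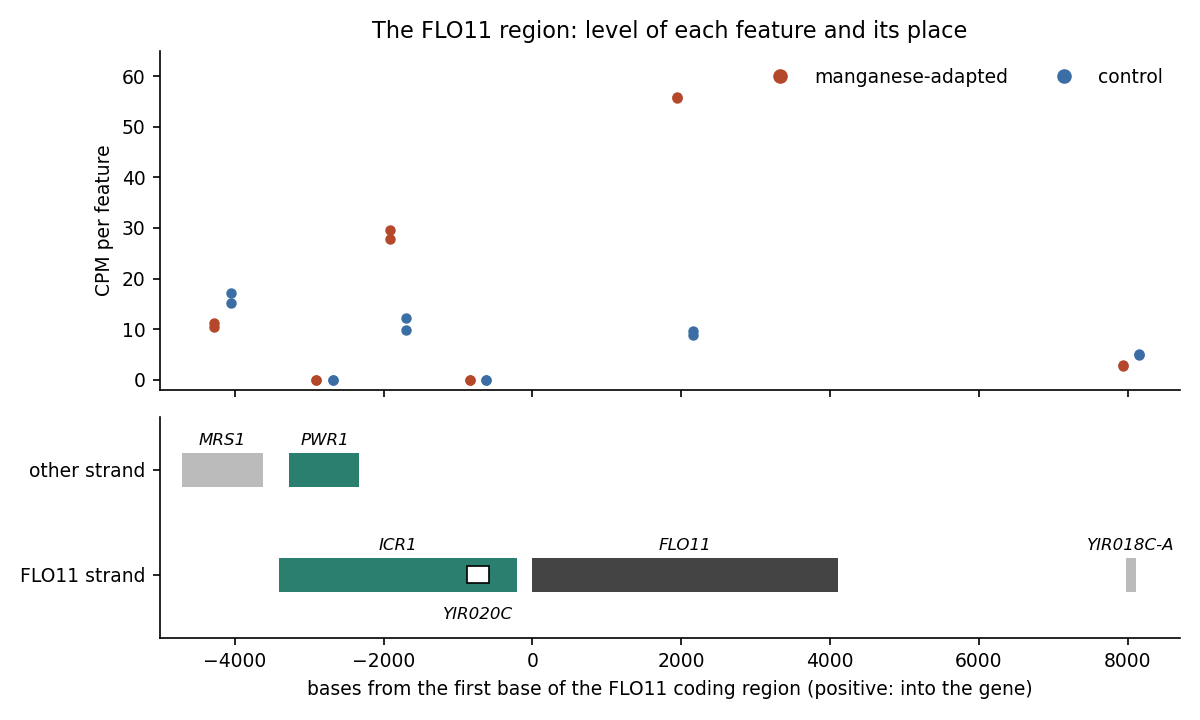
CPM of every annotated feature around FLO11 (upper panel, points are libraries, manganese-adapted left of control) above its place by strand, in bases from the FLO11 start codon (lower panel). FLO11 and ICR1 are higher in manganese-adapted libraries, MRS1 and YIR018C-A on either side are lower (YIR018C-A not with the coding length trend removed), and PWR1 and YIR020C inside ICR1 are at 0.

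The genes on either side of the FLO11 and ICR1 pair moved the other way. MRS1, which serves splicing of mitochondrial introns and lies 211 bases beyond ICR1, was at 10.4 and 11.1 CPM in manganese-adapted and 15.1 and 17.2 CPM in control libraries (log2 fold change -0.54 ± 0.13, limma adjusted p 0.0037). YIR018C-A, downstream of FLO11, was at 2.88 and 2.76 CPM in manganese-adapted and 4.88 and 5.03 CPM in control libraries (-0.64 ± 0.17, limma adjusted p 0.0064), but stood at 0.04 with the coding length trend removed. Over all 15 nearest or overlapping features of the members, 12 were tested, of which 7 rose, 3 fell and 2 did not pass, against 33.6% higher and 34.9% lower over all features. Beside the flocculin genes nearer to chromosome ends, NFT1, a vacuolar-type ABC transporter gene next to FLO10, rose by 1.52 and SIR1, which serves silencing, on its other side by 0.42. Next to FLO9, GDH3, a glutamate dehydrogenase, rose by 0.99 and YAL063C-A by 0.74. SWH1, on the inner side of FLO1, rose by 0.71, while YHR210C beside FLO5 was at 8.63 and 11.8 CPM in manganese-adapted and 9.13 and 10.8 CPM in control libraries. FLO1 ends 22202, FLO9 23999, FLO10 16951 and FLO5 34024 bases from the nearest chromosome end. Beside FLO8 and SFL1, GLE2 fell (-0.27) and KAP123 (0.29) and ARP8 (0.46) rose, while RUP1 (0.18) did not pass. Of these, the GLE2 call was lost in DESeq2 (adjusted p 0.0895), with library size as the only scaling (limma adjusted p 0.06) and without control 2 or either manganese-adapted sample, the KAP123 call without control 1 or either manganese-adapted sample, and SIR1, ARP8, GLE2 and KAP123 no longer passed with the coding length trend removed.

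Of the genes known to act on FLO11 or to resemble flocculins, 63 distinct genes in 8 lists were tested, of which 37 rose and 5 fell; the median of their log2 fold changes was 0.32. Over all 6296 features tested, 33.6% rose, 34.9% fell and the median was -0.01. The lists were chosen with earlier results of these data known. Other surface adhesins rose in 5 of 6 cases (median 1.05). HPF1, a haze-protective mannoprotein, was at 3851 and 3189 CPM in manganese-adapted and 1451 and 1302 CPM in control libraries (log2 fold change 1.35, limma adjusted p 3.49e-05). BSC1 rose by 1.49, FIG2, an adhesin of mating cells, by 1.20, and SAG1, the alpha-agglutinin, by 0.91, while AGA2 was at 50.5 and 49.3 CPM in manganese-adapted and 41.5 and 45.8 CPM in control libraries. Of 4 fragments of flocculin genes, YAR061W, YAR062W and YHR213W were at 0 in every library; YAR061W and YHR213W hold no stretch of 50 bases found once. YAL065C, 53.0% of which is found once, was at 4.13 and 3.24 CPM in manganese-adapted and 1.42 and 1.28 CPM in control libraries.

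Of 9 activators of FLO11, 5 rose and 1 fell (median 0.58), against 33.6% higher and 34.9% lower over all features. Calls in either direction were near the 68.5% over all features. The summed level of the 9 was 2632 and 2504 CPM in manganese-adapted and 2574 and 2584 CPM in control libraries, which overlap. GCN4, the highest of the 9, was at 1378 and 1351 CPM in manganese-adapted and 1562 and 1577 CPM in control libraries and did not pass. It weighs most in this sum, so the sum does not show whether the other activators changed. MGA1, a heat shock factor relative that promotes pseudohyphal growth, was at 71.2 and 64.7 CPM in manganese-adapted and 22.1 and 17.1 CPM in control libraries (log2 fold change 1.75 ± 0.13, SE, limma adjusted p 1.07e-06). STE12, the transcription factor of mating and filamentation, was at 122 and 125 CPM in manganese-adapted and 38.0 and 42.1 CPM in control libraries (1.60 ± 0.09). RIM101, a regulator of the alkaline pH response, rose by 1.06, and ASH1, a daughter-cell factor, fell by 0.85. The 7 repressors summed to 1179 and 1057 CPM in manganese-adapted and 744 and 744 CPM in control libraries. Of these 7, 6 rose and none fell (median 0.50), against 33.6% higher and 34.9% lower over all features. Among them were SOK2 (0.98), the corepressor TUP1 (0.89), the glucose-controlled repressor NRG1 (0.50) and the Ste12 inhibitor DIG1 (0.50), while CYC8, the partner of Tup1, was at 168 and 146 CPM in manganese-adapted and 153 and 157 CPM in control libraries.

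In the cAMP and protein kinase A pathway 6 of 12 genes rose and 1 fell (median 0.18). Over all features 33.6% were called higher, 34.9% lower and 68.5% in either direction. GPA2, the G protein alpha subunit of the glucose-sensing branch, was at 1367 and 1142 CPM in manganese-adapted and 319 and 291 CPM in control libraries (log2 fold change 2.03 ± 0.12, SE). Its receptor gene GPR1 rose by 0.59 and the cAMP phosphodiesterase gene PDE1 by 0.67. The gene that fell was PDE2, the other cAMP phosphodiesterase gene of the list (-0.35, limma adjusted p 0.0046). CDC25, which activates Ras, rose by 0.41 but stood at -0.0036 with the coding length trend removed. Of the kinase subunit genes, TPK2, whose product acts on Flo8 and Sfl1, was at 245 and 225 CPM in manganese-adapted and 210 and 219 CPM in control libraries and did not pass. In the filamentation MAP kinase list, which shares STE12, TEC1, DIG1 and DIG2 with the lists above, 10 of 13 genes rose and none fell (median 0.41), against 33.6% higher and 34.9% lower over all features. MSB2, the signalling mucin at its head, rose by 1.08, SHO1 by 0.60 and the kinase gene STE20 by 0.61. In the Snf1 list none of 4 rose and 1 fell, against the same shares: SNF4, its activating subunit, fell by 0.88. Among 15 chromatin genes 8 rose and 2 fell (median 0.22), against 33.6% higher and 34.9% lower over all features. Calls in either direction were near the 68.5% over all features. SWI1 (0.92) and SNF2 (0.50) of the SWI/SNF complex and CTI6 (0.64) of the Rpd3L complex rose, and the deacetylase subunit gene HDA3 fell (-0.50). SNF2 was at 0.07 with the coding length trend removed, and the HDA3 call was lost without manganese-adapted 1 (limma adjusted p 0.12).

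**Figure D5:**
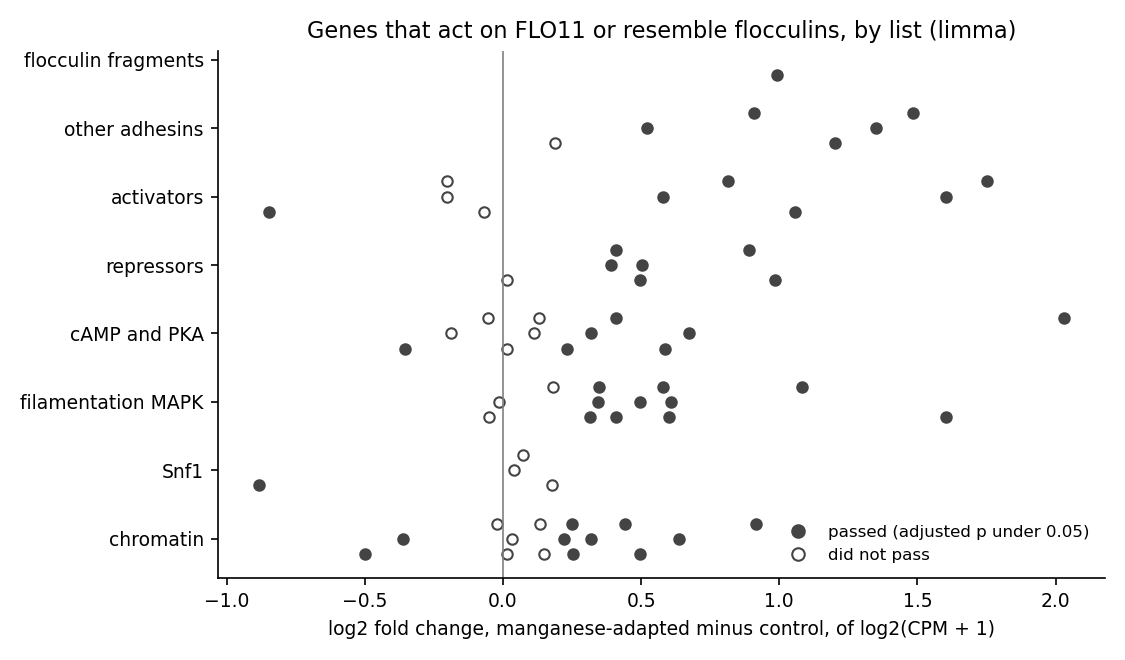
Log2 fold change, manganese-adapted minus control, of log2(CPM + 1) for every tested gene of the 8 lists; filled points passed in limma (adjusted p under 0.05) and open points did not. Of the activators of FLO11 5 of 9 rose and of the repressors 6 of 7, with STE12 (1.60), MGA1 (1.75) and GPA2 (2.03) farthest among the regulators.

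The genes whose log2 levels over the 4 samples, each centred on its own mean, lay nearest to FLO11 were SMP1 (distance 0.10), RIM4 (0.18), YMR084W (0.18), GTO3 (0.18) and XBP1 (0.19). SMP1, a MADS-box transcription factor, was at 143 and 151 CPM in manganese-adapted and 25.6 and 28.9 CPM in control libraries. RIM4 encodes a meiotic RNA-binding protein, and XBP1 a stress-induced repressor. The distance is taken over 4 samples in 2 groups, and the log2 fold changes of these 5 genes were between 2.34 and 2.51.

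In the authors' deposited table the log2 fold changes of the members had the same order at the top, with 2.59 for FLO11 and 2.36 for FLO10. That table gives 1.37 for ICR1, 1.06 for FLO8, 0.71 for SFL1 and 0.89 for FLO1, the member with reads that has the largest false discovery rate there, 3.03e-06.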

How the data were processed

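Libraries were made from total RNA with a TruSeq RNA kit, per the labels' protocols. The submitters' processing notes name build sacCer3 and the tools HTSeq, edgeR, Bowtie, TopHat2 2.0.13 and cutadapt 1.8.1; the sources used here do not state the annotation or the strand setting. The deposited values, headed as counts, are CPM to which the authors applied an effective library size. Every one lay within 0.001 of a whole number of reads, so whole reads were recovered for 100.0% of values. The authors' deposited log2 fold changes and false discovery rates (adjusted p-values) were read only to be quoted. R64 annotation, the same assembly, matched 6078 of the 7126 features (85.3%).

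The comparison of 2 manganese-adapted with 2 control samples used limma 3.58.1 in R 4.3.3 (trend, no covariate) on log2(CPM + 1). Features needed 1 CPM in 2 or more samples (6296 passed), with Benjamini-Hochberg adjustment over all of them and a threshold of 0.05. Fold changes on this scale understate those of low genes. The test was checked on simulated data. Alternatives were edgeR 4.0.16 (quasi-likelihood) and DESeq2 1.42.0 on recovered reads, other scalings, pseudocounts and filters, a replicate block, removal of the coding length trend, and leaving out each sample; on recovered reads edgeR called 4314 features. Replicates of a group differed beyond sampling noise (chi-square per feature 10.5 in manganese-adapted and 23.0 in control samples). Each was counted as 1 sample, but this spread does not show whether they came from separate cultures.

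The members and lists were chosen with earlier results of these data known. Besides the members, the text names their nearest features, up to 4 genes per list (largest change past the threshold, mean of at least 5 CPM) and the 5 genes nearest to FLO11. AGA2, CYC8, GCN4, TPK2, PDE2 and the flocculin fragments were named after their values were seen.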

Additional observations from a re-analysis of the deposited data

How the results depend on the processing

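The 8 members with reads stayed higher and past the threshold under all 16 alternatives, as did the sum of FLO1, FLO5 and FLO9. FLO11 ran from 1.77 (pseudocount of 10 CPM) to 2.60 (DESeq2), FLO10 from 1.99 to 2.44, FLO1 from 0.49 to 1.18 and SFL1 from 0.47 to 0.93. The lowest FLO1 and SFL1 values came with the coding length trend removed; without control 2 they were 0.60 and 0.50, and without manganese-adapted 1 their limma adjusted p was 0.0429 and 0.041. Leaving out a sample leaves 1 sample in a group, which is assumed to vary like the other group. Features called over the table numbered 3316 to 4426, against 4313. Of the members' neighbours, 5 instead of 10 passed with the coding length trend removed, and under it YIR018C-A (0.040), KAP123 (-0.045), CDC25 (-0.0036) and MFA2 (0.12) changed sign; the cause was not tested. Same-numbered samples deviated weakly in opposite directions (correlation -0.18 across features). A single such correlation cannot show whether the numbers pair the samples, and the main fit used no pairing. With a replicate block 4196 features were called, and with the crossed pairing, chosen after seeing the data, 4426; FLO11 stayed at 2.47 under both. With 2 samples per group, differences between members cannot reach an exact permutation p under 0.333. PWR1 has no value under any setting, having no reads.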
